A study of Mus musculus with 6 samples.

Results

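Mitosis and kinetochore genes were examined as a group of 48 listed genes, in RNA-seq data of mouse mammary epithelial cells and JNK-deficient mammary tumor cell lines. They were listed by gene symbol for their roles in mitosis. Each symbol was found in exactly 1 entry of a table of 37753 entries with values, and all 48 were among the 12461 genes that passed a filter on low values (mean of at least 1 FPKM over the 6 libraries). FPKM is a fragment count scaled for the exon length of the gene and for the size of the library. The control group (MEC) held 3 preparations of primary mammary epithelial cells, each pooled from 3 to 5 virgin Wap-Cre+ females on a C57BL/6J background aged 10 to 12 weeks and cultured on collagen I. The tumor group (MEKO) held 3 cell lines, named 199, 233 and 336, each derived from 1 tumor of a parous Wap-Cre+/- mouse whose genotype was Mapk8 LoxP/LoxP and Mapk9 LoxP/LoxP. These genes encode the kinases JNK1 and JNK2. Wap-Cre, carried by both groups, acts in luminal cells of the mammary epithelium. By the study methods all mice were on the C57BL/6J background, and the labels give no mouse age for the lines. The lines were passed 2 times on collagen I and then kept on standard dishes in a growth medium that differed from that of MEC. Genotype, parity, mouse age, pooling of mice, transformation and culture therefore cannot be told apart in this comparison.

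*Mapk8* was at 23.2, 25.1 and 19.2 FPKM in MEC and at 5.93, 3.12 and 1.37 FPKM in lines 199, 233 and 336. *Mapk9* was at 24.4, 21.5 and 22.1 FPKM in MEC and at 7.62, 3.16 and 3.07 FPKM in the same lines. Both passed the test as lower in MEKO (limma adjusted p = 0.0146 and 0.0122), which was the direction the labels gave. Luminal epithelial markers were detected in all libraries, with 7 genes summing to 5828 to 9372 FPKM in MEC and 946 to 2362 FPKM in MEKO. Basal markers (7 genes) summed to 1532 to 2850 FPKM in MEC, 2276 FPKM in line 199, 10.6 FPKM in line 233 and 58.6 FPKM in line 336. Fragment numbers were not given with the FPKM values. By a rough estimate from ratios among the smallest values, the other libraries had 0.92 to 1.3 times the depth of MEC 1.

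Mitosis separates the copied chromosomes into daughter cells. CDK1 with cyclin A and cyclin B starts it, Polo and Aurora kinases organize the spindle, and the kinetochore, a protein assembly on the centromere, ties each chromosome to microtubules. The spindle checkpoint holds back the anaphase-promoting complex until all kinetochores are attached, after which separase opens the cohesin rings. Most of these genes are transcribed late in the cell cycle, so their mRNA level in a culture is widely used as a readout of cycling cells. In bulk RNA, fewer cycling cells and less mRNA per cycling cell cannot be told apart.

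The promoters of late cell cycle genes are known for a cell cycle genes homology region (CHR), the letters TTTGAA, and for CCAAT boxes. A RefSeq promoter window (GRCm38.p6, 250 bases before to 50 bases after the start, 300 bases in all) was matched to 40 of the 48 genes, and no window was matched for *Ccna2*, *Cdc25c*, *Aurkb*, *Incenp*, *Spc24*, *Tpx2*, *Kif20a* and *Smc4*. Both motifs were searched on both strands, so that TTCAAA and ATTGG also counted. The CHR letters were in the window of 28 of the 40 genes (70.0%), against 20.2% of the 27025 RefSeq genes with a window and 1248 of the 8936 tested genes with one. CCAAT was in 32 of 40 (80.0%), against 41.1% and 43.3%, and both motifs were in 25 of 40 (62.5%), against 9.0% and 7.0%. In 25 genes a CHR match lay within 50 bases of the start, a count for which no share of other genes is given. Across all the matches in these genes, 1 CHR match overlapped a CCAAT match. The windows of *Mad2l1*, *Birc5*, *Nuf2*, *Pttg1* and *Ncaph* held neither motif. Among genes related to mitosis but outside the 48, 36 of 98 (36.7%) held CHR, and among DNA replication genes 4 of 36 (11.1%) did. The RefSeq start can differ from the 5′ end of the gene in GENCODE. The windows of *Kif2c*, *Cdca8* and *Kif4*, all counted with CHR, lay wholly inside the gene as placed by GENCODE, as did that of *Pttg1*. For these genes the bases before the GENCODE 5′ end were not searched. A match is a description of the letters only.

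The windows of the 5 genes with the largest fold change among those with a CHR match are shown because they place the motif against the start, and that of *Pttg1*, the only gene to pass the test, because it held neither motif (it was added after its value was seen). The *Pttg1* window lies wholly inside the gene as placed by GENCODE, whose 5′ end is at base 43426251. The bases before that end were not searched, so a motif there would have been missed. Each is written 5′ to 3′ on the strand of the gene, with the CHR and CCAAT matches of either strand in capitals. Positions are counted from the RefSeq start, with the start itself as 1 and the base before it as -1.
*Kif23* is at chr9:61946750-61947049 (minus strand), *Bub1b* at chr2:118597961-118598260 (plus strand), *Top2a* at chr11:99024140-99024439 (minus strand), *Kif11* at chr19:37376132-37376431 (plus strand), *Mki67* at chr7:135716330-135716629 (minus strand) and *Pttg1* at chr11:43425932-43426231 (minus strand).
Kif23: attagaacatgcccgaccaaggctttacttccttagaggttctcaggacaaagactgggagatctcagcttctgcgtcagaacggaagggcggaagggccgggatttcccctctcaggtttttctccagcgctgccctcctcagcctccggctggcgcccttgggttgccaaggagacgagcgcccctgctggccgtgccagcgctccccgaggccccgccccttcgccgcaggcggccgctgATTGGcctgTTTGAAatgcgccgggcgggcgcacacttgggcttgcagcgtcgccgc
Bub1b: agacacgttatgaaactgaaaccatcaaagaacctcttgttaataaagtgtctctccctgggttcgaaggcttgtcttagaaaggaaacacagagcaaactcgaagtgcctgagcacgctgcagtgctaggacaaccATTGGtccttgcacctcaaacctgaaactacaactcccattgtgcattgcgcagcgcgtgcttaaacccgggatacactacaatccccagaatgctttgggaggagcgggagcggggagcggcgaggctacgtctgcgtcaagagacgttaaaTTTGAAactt
Top2a: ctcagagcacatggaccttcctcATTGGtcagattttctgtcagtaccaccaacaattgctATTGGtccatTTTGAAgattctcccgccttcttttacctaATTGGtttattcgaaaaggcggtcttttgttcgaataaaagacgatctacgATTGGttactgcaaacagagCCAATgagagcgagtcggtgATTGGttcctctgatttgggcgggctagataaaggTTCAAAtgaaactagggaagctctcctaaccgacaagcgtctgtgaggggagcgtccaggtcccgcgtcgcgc
Kif11: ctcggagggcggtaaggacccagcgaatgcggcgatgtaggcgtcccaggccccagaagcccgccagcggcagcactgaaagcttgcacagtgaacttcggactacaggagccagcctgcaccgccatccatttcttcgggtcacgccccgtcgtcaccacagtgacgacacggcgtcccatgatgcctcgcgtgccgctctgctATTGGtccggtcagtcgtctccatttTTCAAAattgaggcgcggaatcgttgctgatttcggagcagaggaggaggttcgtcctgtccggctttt
Mki67: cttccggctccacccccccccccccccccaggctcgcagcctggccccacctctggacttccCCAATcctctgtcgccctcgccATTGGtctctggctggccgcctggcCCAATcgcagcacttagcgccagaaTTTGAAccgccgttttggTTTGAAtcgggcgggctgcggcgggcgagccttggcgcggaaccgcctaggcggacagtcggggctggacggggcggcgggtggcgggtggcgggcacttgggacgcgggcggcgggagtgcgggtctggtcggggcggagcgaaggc
Pttg1: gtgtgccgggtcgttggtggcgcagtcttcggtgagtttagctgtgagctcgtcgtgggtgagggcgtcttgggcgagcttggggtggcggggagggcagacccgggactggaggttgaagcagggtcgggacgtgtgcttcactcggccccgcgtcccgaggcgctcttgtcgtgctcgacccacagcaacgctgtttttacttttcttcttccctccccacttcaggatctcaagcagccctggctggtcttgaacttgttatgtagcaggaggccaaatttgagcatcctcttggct
The CHR match began at base 3 of *Kif23* and base 41 of *Bub1b*, at -179 of *Top2a* and at -23 of it on the opposite strand, at -19 on the opposite strand of *Kif11*, and at -116 and -98 of *Mki67*. *Top2a* held 6 CCAAT matches, *Mki67* 3 and the other three 1 each. The median log2 fold change, MEKO minus MEC, was 0.83 over the 28 genes with CHR and 0.94 over the 12 without it.

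Expression of the 48 genes was compared between MEKO and MEC on the log2(FPKM + 1) scale, on which fold changes of low genes are understated. All 48 had a positive log2 fold change, against 51.2% of the 12461 genes tested. The fold changes ran from 0.07 for *Prc1* to 1.28 for *Kif23*, with a median of 0.85, beside a median of 0.01 over all genes tested. Without MEC 3 the median was 0.50, 47 genes had a lower fold change, and for 40 it fell by over 1.5 times or to 0 or below (*Spc24* and *Prc1*, at -0.04 and -0.30). A gene was called where the limma adjusted p was under 0.05 and the log2 fold change passed 0.75 in either direction. Only *Pttg1* was called higher, 1 of 48, against 2.64% of all genes tested. None of the 48 was called lower, against 7.26% of all genes. At an unadjusted p under 0.05, 22 of the 48 were higher, against 12.4% of all genes. Of the 48, 30 had a log2 fold change above 0.75 and 10 had one above 1, while 6 had a limma adjusted p under 0.1. These 6 were *Spc25*, *Cenpn*, *Kif11*, *Cdca5*, *Pttg1* and *Ncaph*. Shares of all genes are not given at these cutoffs, so the 30, 10 and 6 cannot be set against a background.

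The separation of the groups differed from gene to gene. For 33 of the 48, all MEKO libraries were above all MEC libraries, against 18.5% of all genes tested, and for 0 of 48 all were below, against 18.7%. The groups overlapped for the other 15, *Ccna2*, *Ccnb2*, *Nek2*, *Bub1*, *Mad2l1*, *Ttk*, *Aurkb*, *Cdca8*, *Spc24*, *Cenpe*, *Cenpf*, *Kif4*, *Racgap1*, *Prc1* and *Smc2*. An exact permutation test of 3 against 3 libraries (two-sided) cannot give a p below 0.1, which was its value for each of the 33 genes.

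**Figure D1:**
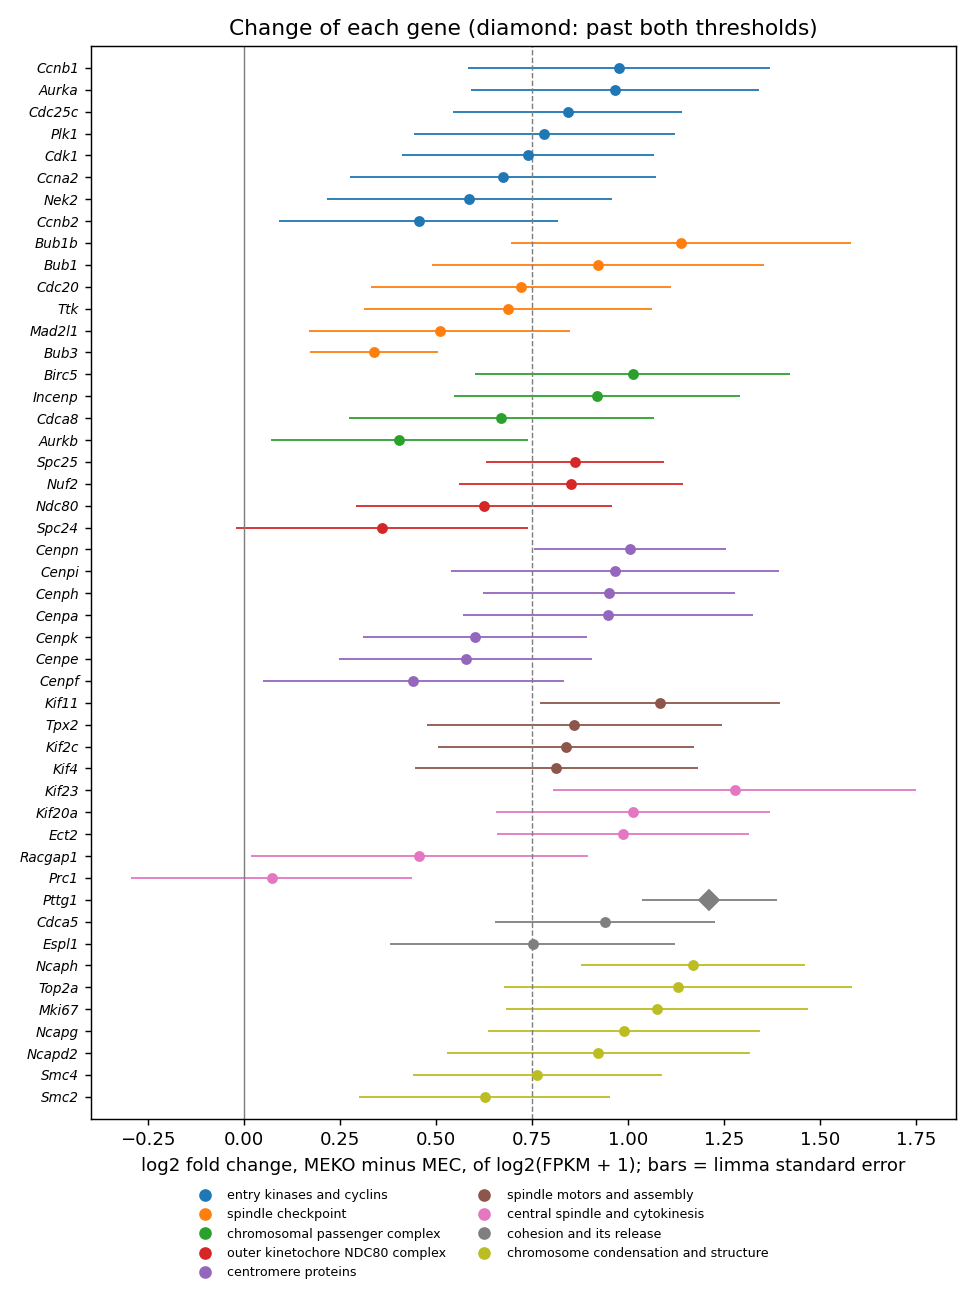
Log2 fold change of each of the 48 genes, MEKO minus MEC, on the log2(FPKM + 1) scale (x axis), with genes on the y axis in blocks by role. Points are limma estimates from 3 libraries per group, bars are standard errors, the dashed line is 0.75, and the diamond marks *Pttg1*, the only gene called. All points lie above 0, and the bars of most genes are wider than that of *Pttg1* (standard error 0.18).

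The spread came mainly from the control group. MEC 3 was the lowest of the MEC libraries for 47 of the 48 genes, against 39.3% of all genes tested. It was the lowest and over 0.75 below the mean of MEC 1 and MEC 2 on the log2 scale for 44 of the 48, against 5.58% of all genes. The median difference of MEC 3 from that mean was -1.09 over the 48 genes and 0.03 over all genes tested. In FPKM, MEC 3 was under 60% of the mean of MEC 1 and MEC 2 for 46 genes, with *Cenpi* lowest at 31.6%. The exceptions were *Bub3*, at 75.8%, and *Pttg1*, at 113%. MEC 1 and MEC 2 were within 1.3-fold of each other for 47 of the 48 genes. The SD on the log2 scale was larger in MEC than in MEKO for 45 of the 48, but for 3288 of all 12461 genes. The median SD over the 48 was 0.63 in MEC and 0.30 in MEKO.

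Among the tumor lines, line 199 was the highest of the MEKO libraries for 40 of the 48 genes, against 39.6% of all genes. Line 199 was above all MEC libraries and over 0.75 above their mean for 41 of the 48, against 12.8% of all genes. By the same rule line 233 was higher for 17, against 9.92% of all genes, and line 336 for 19, against 11.2%. Without MEC 3 these counts were 26, 3 and 3 for lines 199, 233 and 336. Without MEC 1 they were 42, 30 and 30, and without MEC 2 they were 42, 34 and 31. Shares of all genes are not given for the counts with a library left out, so these cannot be set against a background. Against MEC 1 and MEC 2 alone, all MEKO libraries were above both for 33 genes, against 23.2% of all genes tested. This count could not change for the 47 genes for which MEC 3 was the lowest MEC library. The median log2 difference from MEC 1 and MEC 2 was 0.76 for line 199, 0.27 for line 233 and 0.27 for line 336. Markers of other cells also differed between these libraries. The fibroblast markers (8 genes, of which 2 were at 0 in some library) summed to 1111 FPKM in line 199, 2.43 FPKM in line 233, 4.23 FPKM in line 336 and 118 to 207 FPKM in MEC, with MEC 3 lowest. In line 199 that sum was mostly the collagens *Col1a1* (599.7 FPKM) and *Col1a2* (408 FPKM). *Col3a1*, *Pdgfrb* and *Pdgfra* were also above every MEC library in line 199, at 71.52, 19.01 and 1.305 FPKM. Their highest MEC values were 57.59, 11.55 and 0.9491 FPKM. *Dcn*, *Lum* and *Thy1* were lower in line 199 than in any MEC library. *Dcn* was at 0.311 FPKM against 3.29 to 6.62 FPKM, and *Lum* at 0.0264 FPKM against 0.507 to 1.28 FPKM. *Thy1* was at 11.1 FPKM against 14.4 to 19.2 FPKM. The endothelial markers (5 genes, 2 at 0 in some library) summed to 13.9, 16.3 and 1.84 FPKM in MEC 1, MEC 2 and MEC 3, and to 0.176 to 0.473 FPKM in MEKO. The leukocyte markers (8 genes, 6 at 0 in some library) summed to 23.5, 28.3 and 42.4 FPKM in MEC 1, MEC 2 and MEC 3, and to 1.72 to 23.5 FPKM in MEKO. The highest of these, in line 336, was almost all *Cd68* (23.45 FPKM), while *Lyz2* was at 0.0182 FPKM there against 16.6 to 32.9 FPKM in MEC and *Ptprc* and *Adgre1* were listed at 0. Whether such cells were present in the libraries, and what part they had in the result, was not tested.

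**Figure D2:**
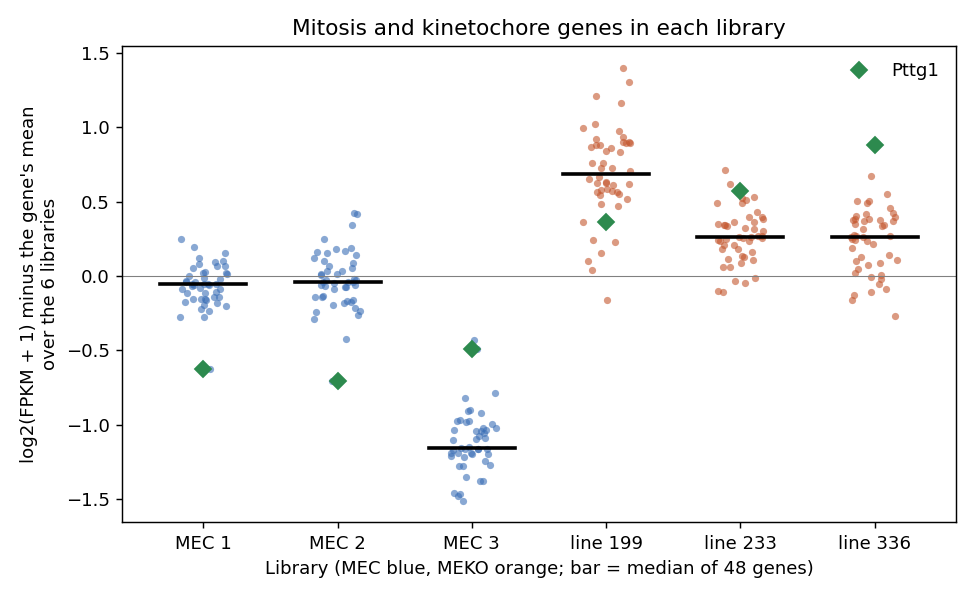
Level of each of the 48 genes in each library (x axis), as log2(FPKM + 1) minus the mean of the gene over the 6 libraries (y axis), with a black bar at the median. The medians are -0.06 in MEC 1, -0.04 in MEC 2, -1.15 in MEC 3, 0.69 in line 199, 0.26 in line 233 and 0.27 in line 336, and *Pttg1* (green diamonds) does not share the low level in MEC 3.

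*Pttg1* encodes securin, which holds separase inactive until anaphase. Among the genes of cohesion and its release (3 genes) it was the most abundant, and it lies at chromosome 11, 43420250 to 43426251 (GRCm38, minus strand). Its level was 31.3, 29.5 and 34.5 FPKM in MEC 1, MEC 2 and MEC 3, and 63.1, 72.9 and 90.8 FPKM in lines 199, 233 and 336. The MEC libraries were close together, MEC 3 was the highest of them, and every line was above every MEC library. The means were 31.8 ± 2.52 FPKM in MEC and 75.6 ± 14.1 FPKM in MEKO (SD, n = 3). On the log2 scale MEKO exceeded MEC by 1.21 with a standard error of 0.18 (limma adjusted p = 0.0119). The order of the lines was also unlike that of most of the other genes, since line 336 was highest and line 199 lowest. Without MEC 1 or without MEC 2 the call was lost (limma adjusted p = 0.0718 and 0.067), with log2 fold changes of 1.20 and 1.16. Without MEC 3 it stayed, at a limma adjusted p of 0.0424.

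The partner of securin, *Espl1*, encodes separase and was the least abundant of the 48 genes, at 3.71 ± 1.67 FPKM in MEC and 6.79 ± 2.58 FPKM in MEKO (SD, n = 3). Its log2 fold change was 0.75 (limma adjusted p = 0.24). *Cdca5* encodes sororin, which keeps cohesin closed, and was at 7.62 ± 2.60 FPKM in MEC and 15.1 ± 3.02 FPKM in MEKO, a log2 fold change of 0.94 (limma adjusted p = 0.0931). For all 3 genes the groups did not overlap.

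*Cdk1*, the kinase that drives entry into mitosis, was the most abundant of the 8 entry kinases and cyclins and of the 48 genes as a whole (chromosome 10, 69335146 to 69352938, GRCm38). It was at 166, 169 and 77.8 FPKM in MEC 1, MEC 2 and MEC 3 and at 261, 194 and 203 FPKM in lines 199, 233 and 336. MEC 3 was well below the other MEC libraries, and the groups did not overlap. This came to a log2 fold change of 0.74 with a standard error of 0.33 (limma adjusted p = 0.201), so it did not pass, and without MEC 3 it was 0.37.

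The other 7 genes of this role were at 7.09 to 44.0 FPKM in MEC and 12.9 to 67.8 FPKM in MEKO on average. They were the cyclins *Ccna2*, *Ccnb1* and *Ccnb2*, the phosphatase *Cdc25c* that removes inhibitory phosphates from CDK1, and the kinases *Plk1*, *Aurka* and *Nek2*. *Ccnb1* had the largest log2 fold change of the role, 0.98, and *Ccnb2* the smallest, 0.46 (limma adjusted p = 0.168 and 0.451). For 5 of the 8 genes the groups did not overlap, and line 199 was the highest line for 7. *Ccnb1* shares over 95% identity with *Gm12856* (98.1% over 52.0% of the transcript), which has its own entry, so reads could have been split between them.

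*Bub3*, which brings checkpoint proteins to the kinetochore, was the most abundant of the 6 spindle checkpoint genes (chromosome 7, 131560222 to 131571895, GRCm38). It was at 63.5, 64.6 and 48.6 FPKM in MEC and at 70.8, 82.2 and 70.1 FPKM in lines 199, 233 and 336. MEC 3 was lower by less than in any other gene except *Pttg1*, and the groups did not overlap. MEKO minus MEC was 0.34 on the log2 scale, with a standard error of 0.17 (limma adjusted p = 0.238), and 0.21 without MEC 3.

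*Bub1b*, which encodes the checkpoint protein BUBR1, lies at chromosome 2, 118598211 to 118641591 (GRCm38). It was at 15.8, 16.4 and 7.71 FPKM in MEC and at 52.5, 18.9 and 24.6 FPKM in lines 199, 233 and 336. Line 199 stood well above the other lines, line 233 was just above MEC 2, and the groups did not overlap. Between the group means the log2 difference was 1.14 with a standard error of 0.44 (limma adjusted p = 0.158). *Bub1*, a related kinase, followed the same order in MEC but overlapped, with 16.5 FPKM in line 336 and 16.9 FPKM in MEC 2. *Cdc20*, the activator of the anaphase-promoting complex that the checkpoint inhibits, had a log2 fold change of 0.72 with groups apart. *Mad2l1*, which encodes the MAD2 protein that binds CDC20, and the kinase *Ttk* had values of 0.51 and 0.69 with overlapping groups. The limma adjusted p of the 6 genes ran from 0.158 to 0.367.

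The chromosomal passenger complex (4 genes) corrects wrong attachments through the kinase Aurora B. *Birc5*, which encodes its subunit survivin, was the most abundant (chromosome 11, 117849251 to 117855743, GRCm38). It was at 66.0, 66.6 and 23.9 FPKM in MEC and at 112, 98.0 and 81.4 FPKM in lines 199, 233 and 336. All lines were above all MEC libraries, and MEC 3 was at 36.0% of the mean of the other MEC libraries. In the limma fit the log2 fold change was 1.01 with a standard error of 0.41 (limma adjusted p = 0.17), and 0.53 without MEC 3. *Aurkb*, the kinase itself, was at 28.2, 27.6 and 12.0 FPKM in MEC and at 29.1, 30.9 and 25.3 FPKM in the lines. The lines were close to MEC 1 and MEC 2, and the groups overlapped. Its log2 fold change was 0.41 (limma adjusted p = 0.462). The scaffold *Incenp* had a log2 fold change of 0.92 with groups apart, and *Cdca8*, which encodes borealin, one of 0.67 with overlapping groups.

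The NDC80 complex (4 genes) is the part of the outer kinetochore that binds microtubules. *Spc25* was its most abundant gene (chromosome 2, 69193895 to 69206194, GRCm38), at 20.0, 18.9 and 11.5 FPKM in MEC and at 33.6, 29.1 and 29.2 FPKM in lines 199, 233 and 336. The lines were close to each other and all above MEC, with MEC 3 lowest. Its estimated log2 fold change was 0.86 with a standard error of 0.23 (limma adjusted p = 0.0654). The members of this complex differed. *Nuf2*, at a log2 fold change of 0.85, and *Ndc80*, at 0.63, also had groups apart, and line 336 was highest for *Nuf2* at 30.9 FPKM. *Spc24* was at 9.50, 11.5 and 3.98 FPKM in MEC and at 7.77, 12.8 and 10.4 FPKM in the lines. Line 199, which was highest for most of the 48 genes, was the lowest line here and below MEC 1. The log2 fold change of *Spc24* was 0.36 (limma adjusted p = 0.566). *Ndc80* is at least 95% identical to *2700099C18Rik* over 13.8% of its transcript, so its level is uncertain to that extent.

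Among the 7 centromere proteins, *Cenpa*, the histone H3 variant that marks the centromere, was the most abundant (chromosome 5, 30666777 to 30674830, GRCm38). It was at 51.1, 48.2 and 18.8 FPKM in MEC and at 70.9, 73.0 and 67.5 FPKM in lines 199, 233 and 336. The lines were almost equal, at 70.4 ± 2.77 FPKM (SD, n = 3), and the spread was all in MEC, at 39.4 ± 17.9 FPKM. The log2 fold change was 0.95 (limma adjusted p = 0.165), and 0.50 without MEC 3. *Cenpn*, which binds the CENP-A nucleosome, had the smallest limma adjusted p of the role, 0.0539, at a log2 fold change of 1.00 and a standard error of 0.25. *Cenph*, *Cenpi* and *Cenpk*, subunits of the inner kinetochore, had log2 fold changes of 0.95, 0.97 and 0.60 with groups apart. *Cenpe*, a kinetochore motor, and *Cenpf*, a large kinetochore protein, overlapped between the groups. *Cenpf* was at 6.97, 9.48 and 2.68 FPKM in MEC and at 7.10, 9.04 and 8.47 FPKM in the lines, and MEC 2 was the highest of the 6 libraries.

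The spindle motors and assembly factors (4 genes) had log2 fold changes of 0.81 to 1.08. *Tpx2*, which activates Aurora A on the spindle, was the most abundant (chromosome 2, 152847964 to 152895321, GRCm38), at 34.4, 34.2 and 15.6 FPKM in MEC and at 72.6, 37.6 and 42.6 FPKM in lines 199, 233 and 336. Lines 233 and 336 were only a little above MEC 1, and line 199 stood apart. This came to a log2 fold change of 0.86 with a standard error of 0.38 (limma adjusted p = 0.204), and 0.50 without MEC 3. *Kif11*, the motor that pushes spindle poles apart (chromosome 19, 37376403 to 37421859, GRCm38), was at 14.7, 14.1 and 7.06 FPKM in MEC and at 32.3, 20.5 and 24.3 FPKM in the lines. Every line was above every MEC library. MEKO minus MEC was 1.08 on the log2 scale, with a standard error of 0.31 (limma adjusted p = 0.08). The depolymerase *Kif2c* had groups apart at a log2 fold change of 0.84. The motor *Kif4* overlapped between the groups at 0.81.

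Central spindle and cytokinesis genes (5 genes) held both ends of the range. *Kif23*, a motor of the centralspindlin complex (chromosome 9, 61915905 to 61946774, GRCm38), was at 21.6, 22.6 and 8.36 FPKM in MEC and at 64.8, 39.9 and 25.5 FPKM in lines 199, 233 and 336. The lines differed among themselves by more than MEC 1 and MEC 2 did, and all were above MEC. Between the group means the log2 difference was 1.28 with a standard error of 0.47 (limma adjusted p = 0.142), and 0.84 without MEC 3. *Racgap1*, its partner in centralspindlin and the most abundant gene of the role in MEKO (chromosome 15, 99620496 to 99651656, GRCm38), was at 49.4, 54.9 and 21.8 FPKM in MEC and at 88.0, 42.5 and 42.0 FPKM in the lines. Lines 233 and 336 were below MEC 1 and MEC 2, so the subunits of this complex did not share their order across libraries. In the limma fit the log2 fold change was 0.46 with a standard error of 0.44 (limma adjusted p = 0.527), but it was 0.05 without MEC 3 and turned to -0.021 with sample weights. *Racgap1* also shares 98.2% identity with *AC148020.1* over 16.0% of its transcript.

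*Prc1*, which bundles the microtubules of the central spindle, was at 55.4, 62.7 and 26.5 FPKM in MEC and at 64.8, 43.3 and 38.5 FPKM in lines 199, 233 and 336. Lines 233 and 336 were again below MEC 1 and MEC 2, and the means were 48.22 ± 19.15 and 48.86 ± 14.03 FPKM (SD, n = 3). Its estimated log2 fold change was 0.07 with a standard error of 0.37 (limma adjusted p = 0.917). Of its exon bases, 11.1% overlap *Rccd1* on the opposite strand. *Kif20a*, a motor needed at the midzone, and *Ect2*, which activates RhoA at the cleavage site, had log2 fold changes of 1.01 and 0.99 with groups apart. *Kif20a* overlaps *Cdc23* on the opposite strand over 29.3% of its exon bases, and whether the fragments were counted by strand is not given in the sources used here. Such overlaps also covered 15.1% of the exon bases of *Kif4*, 13.4% of *Ncapg*, 12.7% of *Cdc25c* and 12.5% of *Ccna2*.

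**Figure D3:**
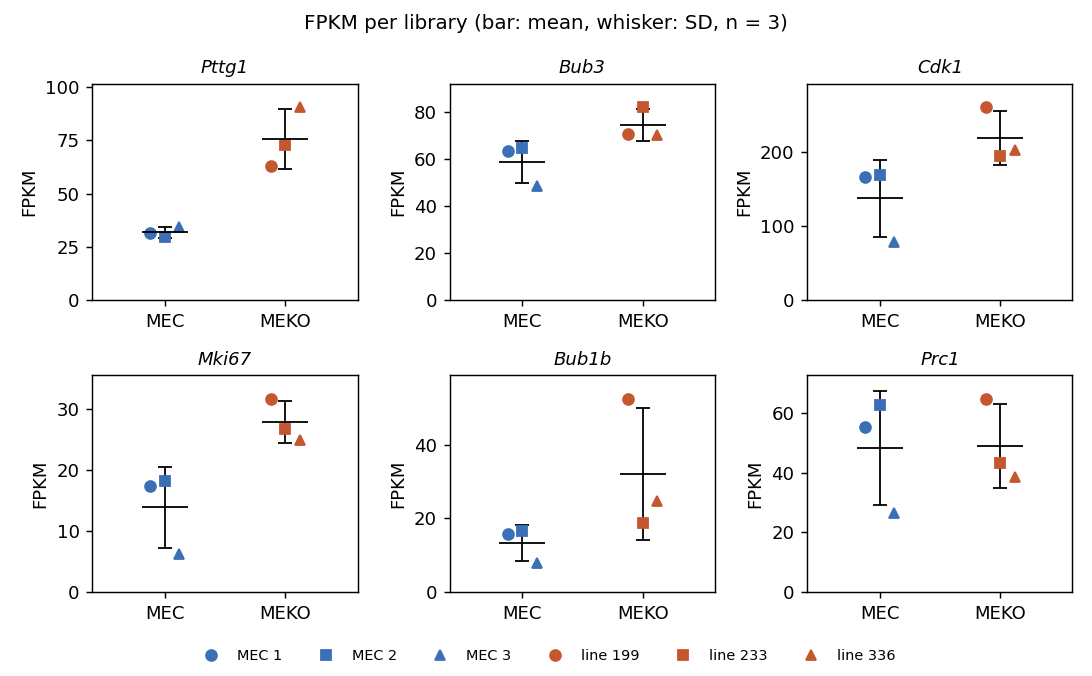
FPKM of 6 genes (y axis, from 0) in the MEC and MEKO libraries (x axis), with a marker per library, a bar at the mean and whiskers of 1 SD (n = 3). *Pttg1* has its MEC libraries close together below all lines, *Bub3*, *Cdk1*, *Mki67* and *Bub1b* have MEC 3 lowest with groups apart, and *Prc1* overlaps.

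Genes of chromosome condensation and structure (7 genes) had log2 fold changes of 0.63 to 1.17, and line 199 was the highest line for all 7. *Top2a*, which encodes the topoisomerase that untangles sister DNA, was the most abundant (chromosome 11, 98992943 to 99024189, GRCm38). It was at 82.2, 92.3 and 33.0 FPKM in MEC and at 212, 124 and 104 FPKM in lines 199, 233 and 336. All lines were above all MEC libraries, with line 336 the nearest to MEC 2. This came to a log2 fold change of 1.13 with a standard error of 0.45 (limma adjusted p = 0.166), and 0.67 without MEC 3. *Ncaph*, a condensin I subunit (chromosome 2, 127103809 to 127133954, GRCm38), was at 16.9, 16.7 and 8.46 FPKM in MEC and at 38.3, 28.2 and 28.7 FPKM in the lines. The gap between the groups was wider than for the other condensin genes. MEKO minus MEC was 1.17 on the log2 scale, with a standard error of 0.29 (limma adjusted p = 0.0545). The other condensin subunits *Ncapg*, *Ncapd2* and *Smc4* had groups apart, and *Smc2*, the smallest of the role at 0.63, overlapped. *Mki67*, which encodes the Ki-67 protein that coats mitotic chromosomes and is a standard proliferation marker, was at 13.9 ± 6.69 FPKM in MEC and 27.9 ± 3.48 FPKM in MEKO (SD, n = 3), a log2 fold change of 1.08 (limma adjusted p = 0.139).

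**Figure D4:**
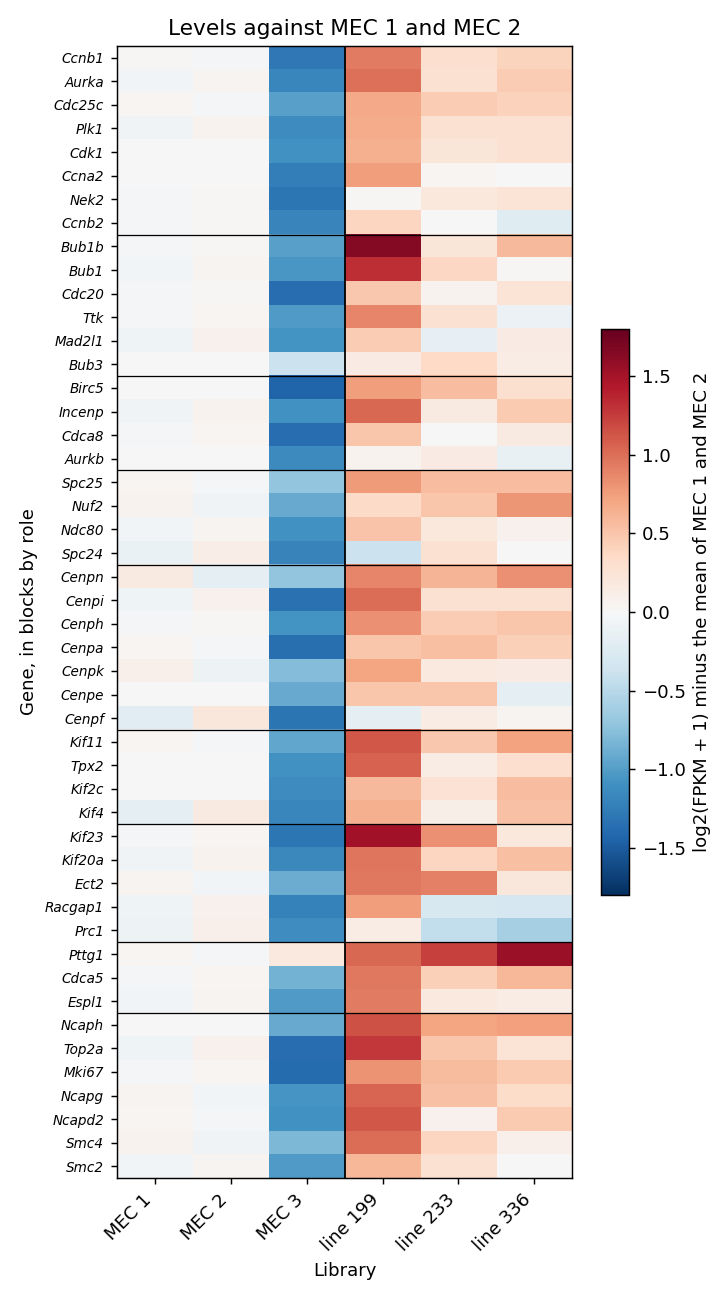
Level of each of the 48 genes (rows, in blocks by role) in the 6 libraries (columns), as log2(FPKM + 1) minus the mean of MEC 1 and MEC 2, from blue (lower) to red (higher). The MEC 3 column is blue for 47 genes, line 199 is the reddest column for most, and *Pttg1* is red in all lines, most in line 336.

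Genes related to mitosis outside the 48 were listed by hand, and 114 of 115 were tested. Of these, 3 (2.63%) were called higher, a share close to the 2.64% of all genes, and 2 (1.75%) lower, against 7.26% of all genes. The median log2 fold change was 0.42. The genes called higher were *Ckap2* and *Ckap2l*, spindle proteins, and *Fbxo5*, an inhibitor of the anaphase-promoting complex, with log2 fold changes of 1.37, 1.45 and 1.22 (limma adjusted p = 0.0209, 0.0442 and 0.0484). *Wee1*, the kinase that keeps CDK1 inactive, fell by 0.98 on the log2 scale, from 20.6, 21.5 and 27.3 FPKM in MEC to 12.1, 8.26 and 13.7 FPKM in the lines (limma adjusted p = 0.0437). *Cdc14a*, a phosphatase, fell by 2.39 (limma adjusted p = 0.00453). MEC 3 was the highest of the MEC libraries for *Wee1* and *Cdc14a*, unlike for 47 of the 48 genes.

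Over the DNA replication list (43 of 45 genes tested) no gene was called, and 6 of 43 were higher at an unadjusted p under 0.05, a share near the 12.4% of all genes. The median log2 fold change was 0.58, and the median difference of MEC 3 from MEC 1 and MEC 2 was -1.05. That difference was -1.09 for the 48 genes and -0.69 for the other mitotic genes. Among 18 regulators of mitotic transcription no gene was called either, with 4 (22.2%) higher at an unadjusted p under 0.05, against 12.4% of all genes. Their median log2 fold change was 0.16, and 7 of the 18 were not above 0. The lowest was *Rb1*, a repressor of cell cycle genes (named after its value was seen), at -0.84 with every line below every MEC library (limma adjusted p = 0.112). *Foxm1*, an activator of late cell cycle genes, was at 7.17, 7.35 and 2.85 FPKM in MEC and at 14.9, 9.83 and 9.81 FPKM in the lines (limma adjusted p = 0.146). *Mybl2*, which acts with it, was at 13.1, 16.1 and 5.63 FPKM in MEC and at 37.6, 10.2 and 15.4 FPKM in the lines (limma adjusted p = 0.433). Both were lowest in MEC 3 and highest in line 199, while the lowest of the regulators were not, since *Rb1*, *Lin37* and *Rbl2* were highest in MEC 3. Of 7 CDK inhibitors only *Cdkn2a*, which encodes p16 INK4A and p19 ARF, was called (14.3%, against 2.64% of all genes called higher). It was at 2.23, 1.39 and 7.54 FPKM in MEC and 159, 87.8 and 246 FPKM in the lines (limma adjusted p = 0.00452). Its level was highest in MEC 3 among the MEC libraries, whereas the 48 genes, *Pttg1* apart, were lower there. The other CDK inhibitors were mixed. Among the MEC libraries, MEC 3 was also highest for *Cdkn1b*, *Cdkn1c* and *Cdkn2b*, but lowest for *Cdkn2c* and *Cdkn2d*, with *Cdkn1a* between.

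**Figure D5:**
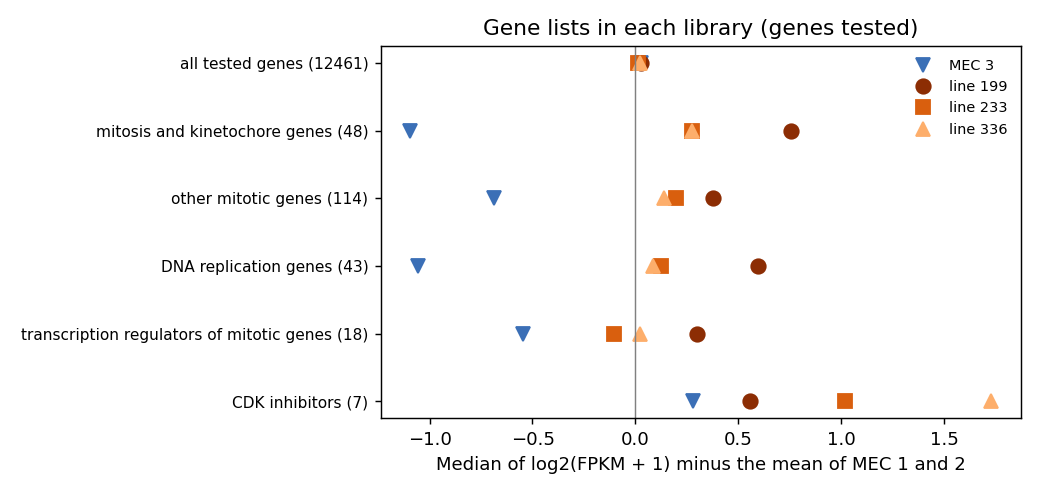
Median over the genes of each list (y axis, with the number tested) of log2(FPKM + 1) minus the mean of MEC 1 and MEC 2 (x axis), for MEC 3 and lines 199, 233 and 336. For the 48 mitosis and kinetochore genes MEC 3 is at -1.09 and line 199 at 0.76, while all genes tested lie near 0.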

How the data were processed

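RNA from 3 MEC and 3 MEKO libraries was sequenced paired-end. After trimming, the authors mapped the reads to the mm10 genome (TopHat2 2.0.14 over Bowtie2) and deposited gene FPKM values from Cufflinks 2.2.1. The annotation and the use of strand are not given in the sources used here. The table holds 37755 entries, 2 of them without values. Besides the gene names the table holds only the library columns, with no columns of comparisons. MEKO were compared with MEC by limma 3.58.1 (R 4.3.3) on log2(FPKM + 1) values. The empirical Bayes step used a trend in the variance, and p-values were adjusted by Benjamini-Hochberg over the 12461 genes with a mean of at least 1 FPKM. Thresholds were an adjusted p of 0.05 and a log2 fold change of 0.75. The fit was tested on simulated data. MEC preparations and MEKO lines were treated as replicates, and no replicate number is shared between groups. FPKM carries no fragment number, so no counting interval or detection floor was computed. The 48 genes, their roles and the other lists were chosen with earlier results of these data known.

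Among the 48 genes, values in all libraries are given for the called gene, the 6 with the largest absolute fold change, and the most abundant gene of each of 9 roles by the mean over all libraries. *Aurkb*, *Spc24*, *Cenpf*, *Prc1*, *Rb1* and the named cell type markers were added after their values were seen. Gene positions and overlaps are from GENCODE M21 (GRCm38), promoter windows from RefSeq (GRCm38.p6), and near-identical copies were found with blastn 2.17.0 (at least 95% identity over at least 10% of a transcript). Alternatives were a pseudocount of 0.1, no filter, a filter at 5 FPKM, quantile normalization, upper-quartile scaling, no trend, sample weights, an adjusted p alone and leaving out each library.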

Additional observations from a re-analysis of the deposited data

How the results depend on the processing

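With 1 library left out at a time, the number of the 48 genes called higher was 0 to 1 (0 without MEC 1 and without MEC 2) and the number called lower was 0 throughout. The number above MEC was 26 to 42 for line 199, 3 to 34 for line 233 and 3 to 31 for line 336, lowest without MEC 3. The matching shares of all genes are not given. The median log2 fold change was 0.50 (without MEC 3) to 1.02, and the number of genes with every line above every MEC library was 33 to 40. Leaving out a library can only keep or raise that number, so its range is no check of the separation. Under the pseudocount, filter and scaling alternatives the median was 0.80 to 0.90 and that number 30 to 33. The log2 fold change of *Pttg1* was 1.07 to 1.33 and its limma adjusted p 0.00242 to 0.0718 over all alternatives. With sample weights, *Racgap1* turned to -0.021 (limma adjusted p = 0.973), and the cause was not tested. The weights also lowered the log2 fold change by over 1.5 times for *Cdk1* (0.35), *Bub1b* (0.64), *Birc5* (0.55), *Cenpa* (0.52), *Kif11* (0.69), *Tpx2* (0.38), *Kif23* (0.79) and *Top2a* (0.65), none of which was called. The number of all genes called was 1234, but 1978 with sample weights, 1966 without line 199, 738 with a filter at 5 FPKM, and 259, 301 and 477 without MEC 1, MEC 2 and MEC 3. With quantile normalization the median of all genes was 0.1. Summing all entries of a symbol was not run, since each symbol has 1 entry. Without fragment numbers, the precision of low genes such as *Espl1* is not known. No paired analysis was possible because MEC and MEKO share no replicate numbers.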
